A study of Mus musculus with 23 samples.

Results

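The 10 genes described here encode the PIWI proteins Piwil1, Piwil2 and Piwil4, the piRNA biogenesis factors Mov10l1, Pld6, Asz1, Mael, Henmt1 and Gtsf1, and the transcription factor Mybl1. They were chosen by gene symbol from 19661 named genes on the array, and all 10 were present with 1 probe set each and passed a filter on dim signal that left 14746 genes. Total RNA came from spermatogenic cells isolated at the age of 14.5 days, pooled from 4 testes for each array, and was hybridised to Affymetrix Mouse Gene 1.0 ST chips. The 23 arrays were of 7 genotypes: the inbred strains PWD (3 arrays) and B6 (3), their reciprocal F1 hybrids PWDxB6 (3) and B6xPWD (3), and the F1 crosses PWDxPWK (2), B6xBALB/C (6) and BALB/CxB6 (3). PWD and PWK are wild-derived strains of Mus musculus musculus, B6 and BALB/C are laboratory strains of mainly Mus musculus domesticus origin, and the strain named first is by convention the mother. PWDxB6 males are known from the field for meiotic arrest and sterility.

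PIWI proteins are germline Argonaute proteins that bind PIWI-interacting RNAs (piRNAs) and silence transposons. Piwil2 and Piwil4 act in fetal germ cells and bind pre-pachytene piRNAs, and Piwil2 remains present in spermatocytes. Piwil1 appears when spermatocytes reach the pachytene stage of meiosis, where Mybl1 (A-MYB) drives transcription of pachytene piRNA precursors and of genes of the pathway. In the first wave of spermatogenesis the most advanced germ cells at this age are in meiotic prophase, beside spermatogonia. The pathway is thus measured while its pachytene branch is being switched on.

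All values are on a log2 scale, so a difference of 1 is a doubling. Array medians ran from 6.13 to 6.28, and the number of arrays, not counting error, limits the precision. Germ cell markers were present on every array (Sycp3 at 9.05 to 10.43, Kit at 9.32 to 10.18), but so were those of Sertoli cells (Wt1, 9.95 to 10.77) and peritubular cells (Acta2, 11.39 to 11.91), so the preparations were not free of somatic cells. Of 8 listed spermatid genes 5 passed the filter at 5.12 on their mean, the highest being Acr (5.15 to 7.42) and Prm2 (5.52 to 6.01), and Tnp1 (4.14 to 4.95) did not. In such bulk samples fewer cells of a type and less RNA per cell cannot be told apart. B6xBALB/C replicate 6 stood apart from the 5 other arrays of its genotype: its mean over 19 pachytene spermatocyte genes was 6.11 where they ran from 6.84 to 7.48. It enters the spread that all tests share, and values without it are given beside the main results. It was singled out after seeing the data, so those values describe its weight in the tests and are not further support.

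Piwil1, the PIWI protein of pachytene spermatocytes and round spermatids, varied more than nearly all other genes. Its genotype means spanned 2.81, a 7-fold range that ranked 19 of 14746 genes, against a median range of 0.39 over all genes. Its spread within genotypes was also large, with a pooled SD of 0.77 (rank 18 of 14746) against a median of 0.16. With B6xBALB/C replicate 6 left out the range was 3.30 (rank 11), the pooled SD 0.37 (rank 149), and the B6xBALB/C mean 9.87 ± 0.49 (SD, n = 5).

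The 3 PWDxB6 arrays read 6.76, 6.54 and 6.40 for Piwil1, and the 3 B6xPWD arrays read 8.35, 8.73 and 7.92. PWD gave 7.15, 7.63 and 6.99, and B6 gave 8.33, 8.63 and 9.21. All PWDxB6 arrays therefore lay below all arrays of both parental strains and of the reciprocal hybrid. The PWDxPWK arrays read 7.75 and 7.95 and the BALB/CxB6 arrays 7.70, 7.67 and 7.62. B6xBALB/C ran from 6.89 (replicate 6) over a median of 9.88 to 10.29. PWDxB6 was in fact below each of the 20 other arrays, as were 0.21% of all genes tested (0.278% were above each), and Piwil1 was the 1 member of which this held.

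Ordered by genotype mean, Piwil1 ran from B6xBALB/C (9.37 ± 1.29, SD, n = 6) through B6 (8.73 ± 0.45, n = 3), B6xPWD (8.33 ± 0.41, n = 3), PWDxPWK (7.85 ± 0.15, n = 2), BALB/CxB6 (7.66 ± 0.04, n = 3) and PWD (7.26 ± 0.34, n = 3) to PWDxB6 (6.57 ± 0.18, n = 3). Neighbours in this order overlapped array by array, except PWDxPWK with BALB/CxB6 and PWD with PWDxB6.

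**Figure D1:**
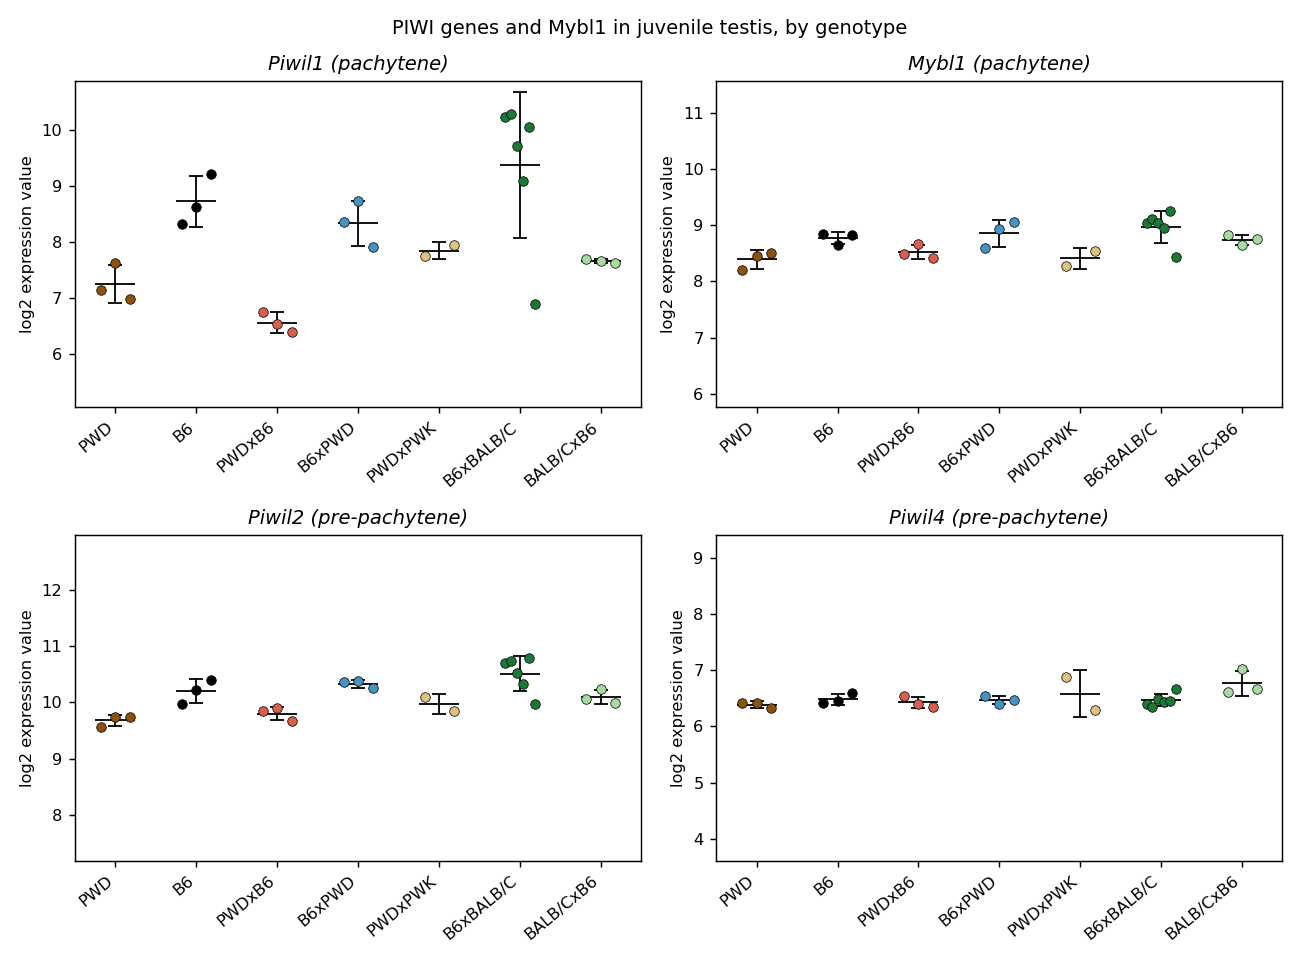
Expression of Piwil1, Mybl1, Piwil2 and Piwil4 (log2 value, vertical axis, the same span in each panel) by genotype (horizontal axis). Points are arrays, the horizontal bar is the genotype mean and the error bar is 1 SD; Piwil1 spreads over 2.81 between genotype means, Piwil4 over 0.38.

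Piwil1 was 3.40-fold lower in PWDxB6 than in B6xPWD, a log2 difference of -1.77 (SE 0.53), which limma placed just short of the threshold (adjusted p = 0.0684). Against the mean of the parental strains PWDxB6 differed by -1.42 (SE 0.46, adjusted p = 0.190), and PWD differed from B6 by -1.47 (SE 0.53, adjusted p = 0.0561). Among 14746 genes the difference of PWDxB6 from the mid-parent was the 5th lowest. These tests use 1 spread pooled over all genotypes. Without B6xBALB/C replicate 6, which belongs to none of these groups, the same differences had adjusted p = 0.000255, 0.000507 and 0.000193. That array was singled out after seeing the data and was the lowest of its genotype for Piwil1. Leaving it out lowers the pooled SD of Piwil1 (0.77 to 0.37) by construction, so these smaller p-values are not further support.

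Piwil1 correlated with the mean of other pachytene spermatocyte genes at r = 0.93 over the 23 arrays, 0.93 without B6xBALB/C replicate 6 and 0.97 over the 20 arrays other than PWDxB6, given as a description of arrays that share genotypes. The mean of the 19 listed genes, none of them a member, ran from 6.15 to 6.26 in PWD, 6.32 to 6.42 in BALB/CxB6, 6.24 to 6.50 in PWDxB6, 6.43 to 6.49 in PWDxPWK, 6.63 to 7.08 in B6xPWD, 6.66 to 6.90 in B6 and 6.11 to 7.48 in B6xBALB/C. PWDxB6 thus overlapped BALB/CxB6 and PWDxPWK in the mean of these genes. Its Piwil1 values (6.40 to 6.76) were below those of BALB/CxB6 (7.62 to 7.70) and PWDxPWK (7.75 and 7.95). Ldhc, a gene of this list, was likewise lower in PWDxB6 (6.24 to 6.94) than in BALB/CxB6 (7.17 to 7.68) and PWDxPWK (both arrays at 7.81). Clgn, also of this list, overlapped (7.98 to 8.82 in PWDxB6, 8.57 to 8.85 in BALB/CxB6, 8.27 to 8.55 in PWDxPWK). By genotype mean, genes of this list went both ways. Hspa2 was higher in PWDxB6 (8.93) than in BALB/CxB6 (8.54) and PWDxPWK (8.67), as was Pdha2 (6.53 against 6.44 and 6.02). Tcp11 was lower (6.27 against 6.36 and 6.43). The part that the number or stage of spermatocytes has in the Piwil1 differences was not tested.

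**Figure D2:**
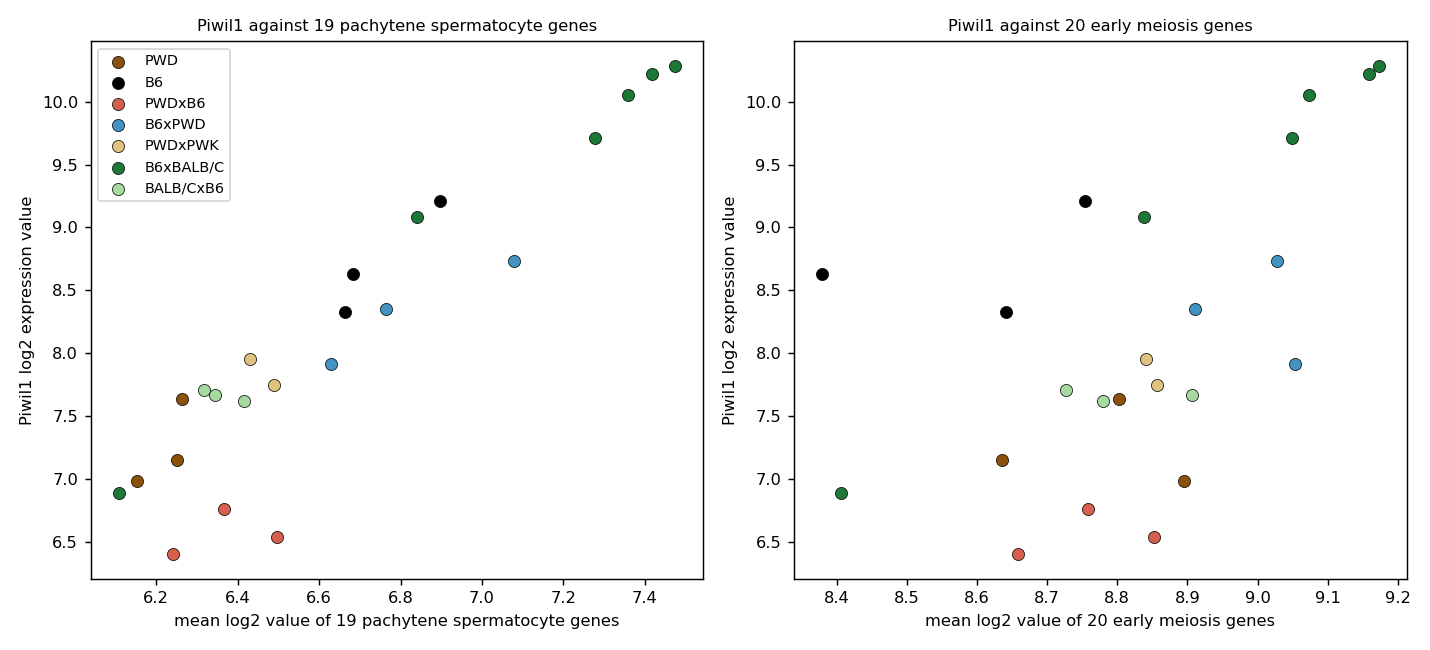
Piwil1 (log2 value, vertical axis) against the mean log2 value of 19 pachytene spermatocyte genes (left) and of 20 early meiosis genes (right), 1 point per array, coloured by genotype. The 3 PWDxB6 arrays lie lowest, at 6.40 to 6.76, and B6xBALB/C replicate 6 is the array of that genotype at 6.89.

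The sequence before an annotated Piwil1 start site is shown because this gene had the widest range. It is given together with those of Asz1 and Gtsf1, the members that differed between the reciprocal hybrids. They come from the RefSeq promoter table (GRCm38.p6), which held windows for 8 of the 10 members, and each run gives the 250 bases upstream of an annotated start on the gene's strand. Capitals mark the 5-letter words AACTG and AACGG, read on either strand, which are cores of MYB-family binding sites.
Piwil1: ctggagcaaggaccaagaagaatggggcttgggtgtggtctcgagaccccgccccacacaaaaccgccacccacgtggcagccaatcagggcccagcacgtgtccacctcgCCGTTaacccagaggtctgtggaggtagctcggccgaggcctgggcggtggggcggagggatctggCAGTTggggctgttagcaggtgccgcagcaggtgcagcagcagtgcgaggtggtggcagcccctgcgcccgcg
Asz1: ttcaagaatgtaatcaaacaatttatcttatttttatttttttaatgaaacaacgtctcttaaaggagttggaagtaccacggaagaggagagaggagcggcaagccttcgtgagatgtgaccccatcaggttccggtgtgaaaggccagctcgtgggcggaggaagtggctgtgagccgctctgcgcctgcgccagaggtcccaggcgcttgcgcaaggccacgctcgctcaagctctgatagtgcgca
Gtsf1: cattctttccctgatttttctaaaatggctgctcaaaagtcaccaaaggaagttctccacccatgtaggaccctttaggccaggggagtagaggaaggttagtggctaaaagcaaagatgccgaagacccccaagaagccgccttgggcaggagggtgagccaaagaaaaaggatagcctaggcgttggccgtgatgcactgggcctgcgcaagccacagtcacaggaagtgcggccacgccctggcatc
The Piwil1 window (chr5:128735996-128736245, plus strand) held 2 such words, 1 of each kind, starting at positions -139 and -73 relative to the start site. The annotated span of Piwil1 itself begins inside this window, at 128736071, and both words lie beyond that point. They are thus upstream of the start site used here but inside the annotated span of the gene. The annotated span of Gtsf1 likewise begins inside the Gtsf1 window. The windows of Asz1 (chr6:18109062-18109311, minus strand) and Gtsf1 (chr15:103430428-103430677, minus strand) held 0, which says only that these letters are not there. At least 1 word was found in 48.6% of 32851 windows of this length and at least 2 in 14.9%, so their presence is common.

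Mybl1, the transcription factor of the pachytene pathway, covered a narrower range than Piwil1. Its genotype means spanned 0.58, from 8.39 ± 0.16 (SD, n = 3) in PWD to 8.97 ± 0.28 (n = 6) in B6xBALB/C. The PWDxB6 arrays read 8.49, 8.67 and 8.41, and the B6xPWD arrays 8.59, 8.93 and 9.06, which overlap. The difference was -0.34 (SE 0.16, adjusted p = 0.219). PWD read 8.20, 8.45 and 8.51 and B6 read 8.84, 8.64 and 8.82 without overlap, a difference of -0.38 (SE 0.16) that limma did not call (adjusted p = 0.0999), and that passed without B6xBALB/C replicate 6 (adjusted p = 0.0311).

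Piwil2 (MILI), which loads piRNAs both before and during meiosis, moved with Piwil1 on a smaller scale. PWD read 9.56, 9.74 and 9.73 and B6 read 9.97, 10.23 and 10.39. PWD was thus below B6 on every array, by -0.52 (SE 0.16, adjusted p = 0.0264), and Piwil2 fell by this test. PWDxB6 read 9.84, 9.90 and 9.67, all below the B6xPWD values of 10.36, 10.39 and 10.26. That difference was -0.53 (SE 0.16) with adjusted p = 0.0694, and adjusted p = 0.0174 without B6xBALB/C replicate 6. The parental call was lost without PWD replicate 1, 2 or 3 (adjusted p = 0.101, 0.0527 and 0.052) and without B6 replicate 2 or 3 (0.065 and 0.123).

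Piwil4 (MIWI2), the nuclear PIWI protein that directs DNA methylation of transposons in fetal germ cells, was close to flat. Its genotype means ran from 6.39 ± 0.06 (SD, n = 3) in PWD to 6.77 ± 0.23 (n = 3) in BALB/CxB6. This range of 0.38 ranked 7821 of 14746 genes and was about the median range. The means lay not far above the array medians (6.13 to 6.28), and brightness relative to background was not assessed. A flat reading may therefore hold little Piwil4 signal. PWDxB6 (6.34 to 6.54) and B6xPWD (6.40 to 6.54) overlapped, with a difference of -0.04 (SE 0.13, adjusted p = 0.869).

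The pre-pachytene members Piwil2 and Piwil4 were set against the pachytene members Piwil1 and Mybl1. Each gene was expressed relative to its own mean over the 7 genotypes, and the genes of a pair were averaged. The pachytene pair deviated by -0.77 ± 0.12 in PWDxB6, -0.49 ± 0.19 in PWD and -0.11 ± 0.06 in BALB/CxB6 (SD, n = 3 each), and by -0.18 ± 0.17 in PWDxPWK (n = 2). It lay above its mean by 0.28 ± 0.20 in B6xPWD, 0.43 ± 0.24 in B6 (n = 3 each) and 0.86 ± 0.78 in B6xBALB/C (n = 6). Most of this span came from Piwil1, whose deviation was -1.40 in PWDxB6 and 1.41 in B6xBALB/C, where Mybl1 stood at -0.14 and 0.30. On removal of B6xBALB/C replicate 6 the pair was at 1.11 ± 0.29 in B6xBALB/C (SD, n = 5) and -0.82 ± 0.12 in PWDxB6 (n = 3).

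The pre-pachytene pair stayed between -0.26 ± 0.04 in PWD (SD, n = 3) and 0.19 ± 0.12 in B6xBALB/C (n = 6). This average joins unlike genes. Piwil2 deviated from -0.41 in PWD to 0.43 in B6xBALB/C, and Piwil4 from -0.12 in PWD to 0.25 in BALB/CxB6. The range of Piwil2 over genotype means (0.83) was wider than that of the pachytene member Mybl1 (0.58). Pachytene minus pre-pachytene was lowest in PWDxB6, at -0.59 ± 0.03, where its 3 arrays ran from -0.62 to -0.57. It was -0.25 ± 0.22 in BALB/CxB6, -0.23 ± 0.15 in PWD, 0.18 ± 0.21 in B6xPWD and 0.39 ± 0.11 in B6 (n = 3 each). In B6xBALB/C it ran from -0.67 (replicate 6) to 1.14. PWDxB6 therefore did not overlap PWD, B6, B6xPWD, PWDxPWK (-0.49 to 0.17) or BALB/CxB6 (-0.50 to -0.09), and only B6xBALB/C replicate 6 was lower. Without that array B6xBALB/C ran from 0.58 to 1.10 and PWDxB6 from -0.65 to -0.60. The low balance of PWDxB6 came from Piwil1, which deviated by -1.40 there. Mybl1, the other pachytene member, deviated by -0.14, between Piwil2 (-0.28) and Piwil4 (-0.08). The balance thus restates the Piwil1 values and shows no shift shared by the pachytene pair.

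**Figure D3:**
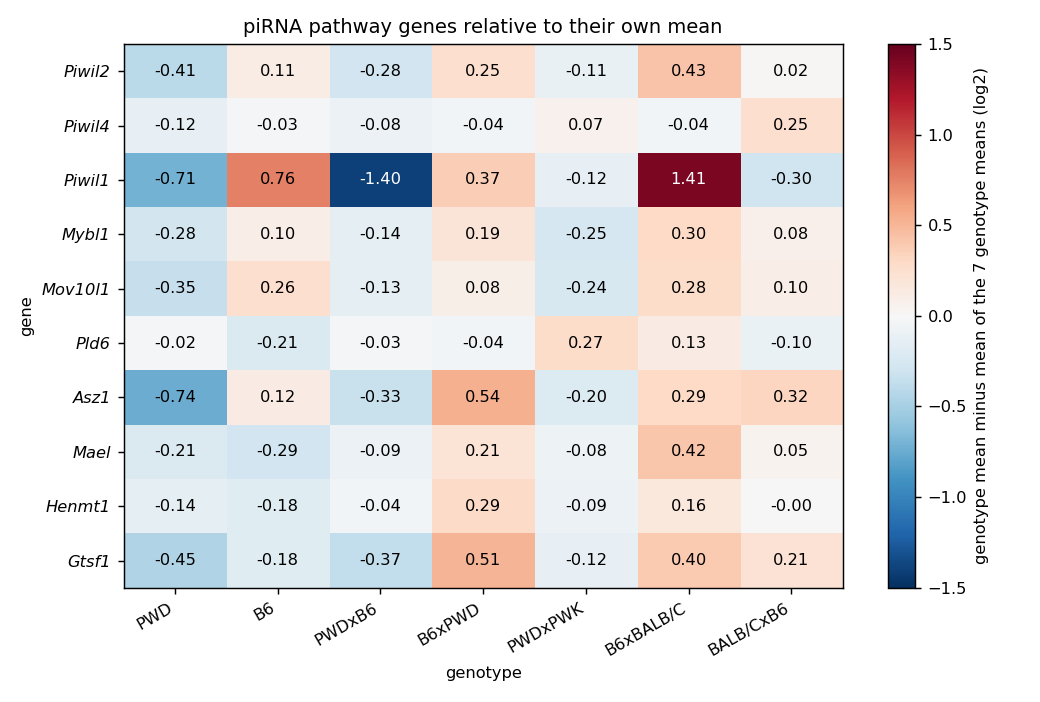
Genotype mean of each of the 10 genes (rows) in each genotype (columns) minus the mean of that gene's 7 genotype means, in log2 units, with the value printed in each cell. Piwil1 in PWDxB6 (-1.40) and in B6xBALB/C (1.41) are the most extreme cells, and Piwil4, Pld6 and Henmt1 stay between -0.21 and 0.29.

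As a measure of likeness, values were correlated over the 23 arrays, which share genotypes and preparations, so these are descriptions. Piwil1 correlated with Piwil2 at r = 0.90 and with Mybl1 at r = 0.78, but with Piwil4 at r = -0.15. With genotype means removed the values were 0.86, 0.69 and -0.31. These include B6xBALB/C replicate 6, the lowest array of its genotype for both Piwil1 (6.89) and Piwil2 (9.97), and may rest largely on it. They were not computed without that array. Leaving out B6xBALB/C replicate 6 gave 0.91, 0.77 and -0.11 over the other arrays, with genotype means kept. Outside the set, the genes most like Piwil1 were Cfap65 (r = 0.98), a cilia and flagella gene, Odf4 (0.98), of the sperm tail outer dense fibre family, and Smpd5 (0.98). Those most like Piwil2 were Ddx4 (0.97), the germ granule helicase VASA, Psma8 (0.96), the testis proteasome subunit, and Ift122 (0.95). Mybl1 was most like Ptbp2 (0.92), a splicing regulator of spermatocytes, Kbtbd6 (0.91) and Ptpn20 (0.91). For Piwil4 the closest were Zswim1 (0.76), Gulo (0.72) and Sall4 (0.72), the last a factor of undifferentiated spermatogonia. Leaving that array out, the r of these 12 genes lay between 0.71 and 0.99.

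The reciprocal hybrids differed in the scaffold protein Asz1 and the PIWI cofactor Gtsf1. Asz1 (GASZ), which anchors piRNA processing at the mitochondrial outer membrane, read 7.73, 8.24 and 7.53 in PWDxB6 and 8.70, 8.86 and 8.55 in B6xPWD. Gtsf1, a zinc finger protein that promotes target cleavage by PIWI proteins, read 7.35, 8.05 and 7.39 in PWDxB6 and 8.49, 8.60 and 8.37 in B6xPWD. The groups overlapped for neither gene, and PWDxB6 replicate 2 was the PWDxB6 array nearest to B6xPWD for each. Asz1 was 1.83-fold lower in PWDxB6 (log2 difference -0.87, SE 0.21, adjusted p = 0.0301) and Gtsf1 1.85-fold lower (-0.89, SE 0.23, adjusted p = 0.0408).

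Of the 10 members 2 fell and 0 rose in limma, where 2.83% of all genes passed, 1.33% higher and 1.51% lower. Their median difference was -0.34 against 0.03 over all genes, and 9 of 10 differences were negative, Pld6 (0.01) being the exception. Arrays of the hybrids did not overlap for 5 members, Piwil1, Piwil2, Mov10l1, Asz1 and Gtsf1, all lower in PWDxB6, as for 10.9% of all genes, and 0 members were higher without overlap, as for 13.1%. The remaining members differed by -0.22 (Mov10l1, SE 0.12), -0.30 (Mael, SE 0.21), -0.34 (Henmt1, SE 0.21) and 0.01 (Pld6, SE 0.14), and none of these 4 passed.

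These calls rested on few arrays. Asz1 no longer passed on removal of PWDxB6 replicate 1 (adjusted p = 0.124) or 3 (0.154) or of B6xPWD replicate 1 (0.0527) or 2 (0.137), and Gtsf1 on removal of any of PWDxB6 replicate 1 (0.173) or 3 (0.162), B6xPWD replicate 1 (0.0663), 2 (0.154) or 3 (0.0553), or PWD replicate 1 or 2 (0.0506 each). Without B6xBALB/C replicate 6 there were 4 calls, Piwil1 and Piwil2 being added, and 5.77% of all genes passed. Beside them, 16 of 17 tested pachytene spermatocyte genes and 19 of 20 early meiosis genes had negative differences (medians -0.39 and -0.21), with 0 and 1 called. Sertoli cell genes were positive in 9 of 11 (median 0.08), and all 7 peritubular genes were positive (median 0.47, 2 called). The summed level of the peritubular genes, as a mean, ran from 8.78 to 9.18 in PWDxB6 and 8.52 to 8.69 in B6xPWD. Their part in these differences was not tested.

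**Figure D4:**
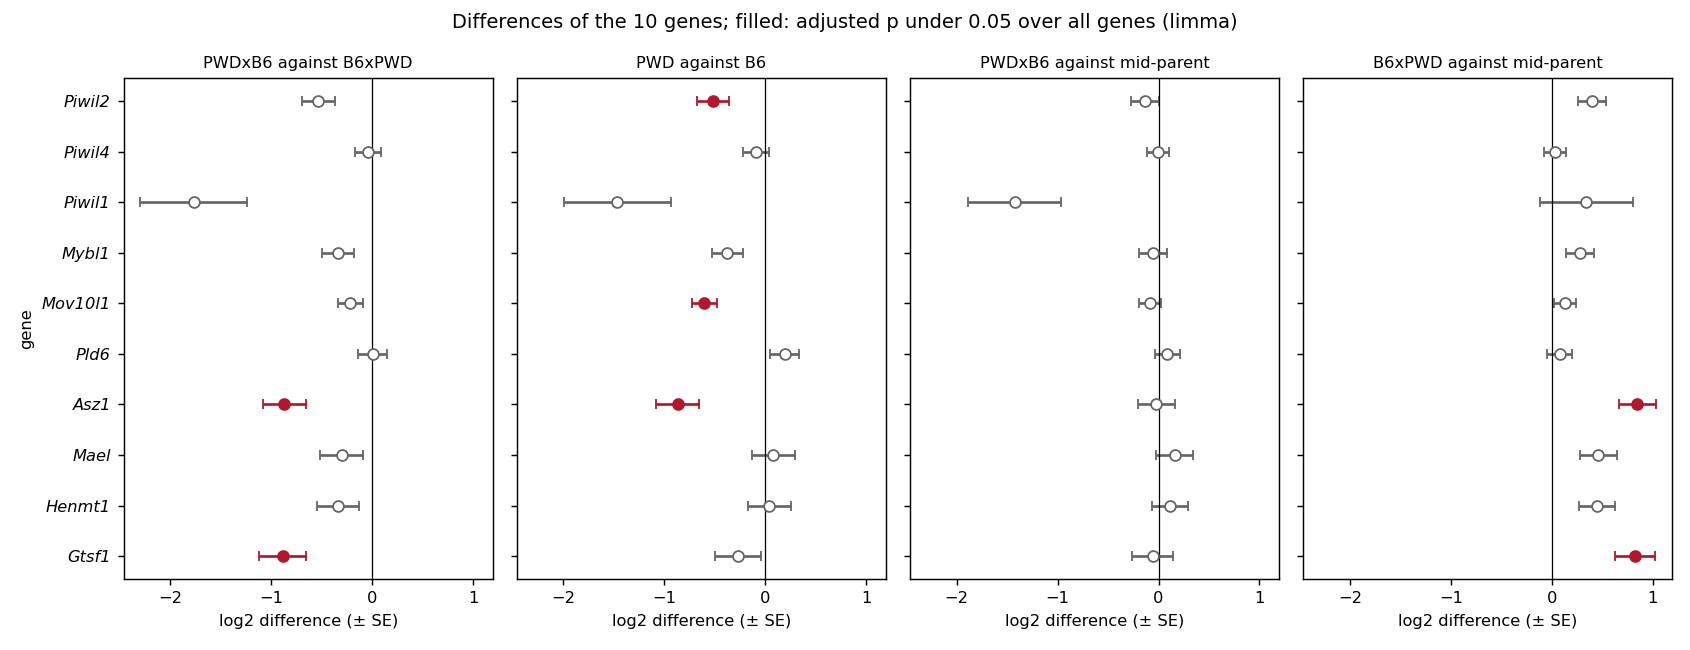
Log2 differences of the 10 genes (horizontal axis, with the standard error of the fit) in 4 comparisons. Filled red points passed an adjusted p of 0.05 over all 14746 genes in limma: Asz1 and Gtsf1 between the reciprocal hybrids, Piwil2, Mov10l1 and Asz1 between the parents, none for PWDxB6 against the mid-parent, and Asz1 and Gtsf1 for B6xPWD against the mid-parent.

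The parental strains differed in Mov10l1, Asz1 and Piwil2. Mov10l1, the RNA helicase that feeds precursor transcripts into piRNA processing, read 10.09, 10.09 and 10.26 in PWD and 10.76, 10.65 and 10.85 in B6. It was 1.52-fold lower in PWD (-0.61, SE 0.12, adjusted p = 0.00122), and this call held without any single array. Asz1 read 7.20, 7.49 and 7.58 in PWD and 8.38, 8.0 and 8.50 in B6, a difference of -0.87 (SE 0.21, adjusted p = 0.00606) that also held without any single array. PWD arrays lay below B6 arrays for Mov10l1, Asz1, Piwil1, Piwil2 and Mybl1, that is 5 of 10 members, as for 16.5% of all genes, and 0 lay above, as for 21.5%.

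Of 10 members 3 were lower in PWD and 0 higher in limma, where 18.4% of all genes passed, 10.4% higher and 8.04% lower. The median was -0.32 against 0.04 over all genes. Beside them, pachytene spermatocyte genes were negative in 13 of 17 (median -0.45, 2 called), early meiosis genes positive in 15 of 20 (median 0.23, 4 called) and macrophage genes negative in 6 of 6 (median -0.64, 4 called), and their part was not tested. Mael (0.08, SE 0.21), which is needed for transposon silencing in spermatocytes, and Henmt1 (0.04, SE 0.21), the methyltransferase that protects piRNA 3' ends, were close to 0, and Pld6 (0.19, SE 0.14), the mitochondrial nuclease Zucchini, was not called. Sequence differences between strains under the probes were not analysed here, and their part in parental differences was not tested.

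B6xPWD stood above its parents in Asz1 and Gtsf1. Its Asz1 values (8.55 to 8.86) were above all B6 (up to 8.50) and PWD (up to 7.58) arrays, and its Gtsf1 values (8.37 to 8.60) above all B6 (7.48 to 8.01) and PWD (7.44 to 7.60) arrays. Against the mid-parent Asz1 rose by 0.85 (SE 0.18, adjusted p = 0.00654) and Gtsf1 by 0.83 (SE 0.20, adjusted p = 0.0114). Mael differed by 0.46 (SE 0.18, adjusted p = 0.0908), with arrays at 10.03, 10.12 and 9.81 against 9.32 to 9.70 in the parental strains, and Henmt1 by 0.45 (SE 0.18, adjusted p = 0.0939). Piwil2 differed by 0.40 (SE 0.14, adjusted p = 0.0579).

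All 10 differences were positive, with a median of 0.37 against -0.03 over all genes, and 2 of 10 rose where 14.5% of all genes passed, 7.79% higher and 6.69% lower. Without B6xPWD replicate 2 both calls were lost (adjusted p = 0.0569 for Asz1 and 0.0718 for Gtsf1), and without B6xBALB/C replicate 6 there were 5 calls, with Piwil2, Mael and Henmt1 added, and 17.8% of all genes passed. With the mean of the crosses within a subspecies as reference in place of the mid-parent, 0 members were called, Asz1 at 0.40 (adjusted p = 0.210) and Gtsf1 at 0.35 (adjusted p = 0.311). Pachytene spermatocyte genes were positive in 14 of 17 (median 0.40, 3 called), early meiosis genes in 19 of 20 (median 0.30, 5 called). Endothelial genes were negative in 7 of 7 (median -0.38, 4 called), Sertoli cell genes in 9 of 11 (median -0.07, 2 called) and Leydig cell genes in 4 of 4 (median -0.48, 1 called), and their part was not tested.

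PWDxB6 had 0 of 10 members past the threshold of limma against the mid-parent, where 0.671% of all genes passed (99 genes, 0.509% higher and 0.163% lower) and 1764 genes had an unadjusted p under 0.05. Piwil1 (-1.42) was far from the other members, whose differences lay between -0.14 (Piwil2) and 0.16 (Mael). Asz1 (-0.02, SE 0.18) and Gtsf1 (-0.06, SE 0.20), which differed between the reciprocal hybrids, were near the mid-parent in PWDxB6. With the crosses within a subspecies as reference Piwil1 differed by -1.73 and passed (adjusted p = 0.0478). Its difference from the mid-parent also passed when the groups compared were fitted alone (adjusted p = 0.000726). These comparisons and those of B6xPWD share the parental arrays.

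In the crosses between B6 and BALB/C, as between PWD and B6, Piwil1 was higher where B6 is named first, as the mother. B6xBALB/C arrays (median 9.88, without replicate 6 all at 9.09 or above) exceeded BALB/CxB6 (7.62 to 7.70) by 1.71 (SE 0.46, adjusted p = 0.0698), and by 2.21 (adjusted p = 1.92e-06) without replicate 6. In B6xBALB/C replicates 4 to 6 alone the difference was 1.01 (adjusted p = 0.525) and in replicates 1 to 3 alone 2.41 (adjusted p = 1.11e-07). None of the 10 members passed in limma with all arrays, where 0.441% of all genes passed (65 genes, 0.359% higher and 0.0814% lower) and 2095 genes had an unadjusted p under 0.05. Arrays of the crosses were without overlap for 0 members, as against 1.36% of all genes higher and 2.54% lower in B6xBALB/C. Without replicate 6, 3 members passed, Piwil1, Piwil2 (0.52) and Mael (0.52), and 6.86% of all genes did. The pachytene spermatocyte genes were higher in B6xBALB/C in 16 of 17 (median 0.84, 1 called), and their part was not tested.

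The reciprocal difference of the PWD and B6 hybrids was then set against that of the B6 and BALB/C crosses, and the answer depends on which cross is subtracted. As coded, with B6 named second in PWDxB6 minus B6xPWD but first in B6xBALB/C minus BALB/CxB6, the differences were -1.77 and 1.71 for Piwil1 and -0.53 and 0.41 for Piwil2. They then differed by -3.48 for Piwil1 (SE 0.70, adjusted p = 0.0198) and by -0.94 for Piwil2 (SE 0.21, adjusted p = 0.0316). Of the 10 members these 2 passed, where 1.3% of all genes passed, 0.224% positive and 1.08% negative. Read with B6 in the same place in both pairs, a reading chosen after seeing the data, the Piwil1 differences were alike in sign and the remaining difference was -0.06 (SE 0.70, 95% confidence interval -1.51 to 1.40). For Piwil2 it was -0.12 (SE 0.21, 95% confidence interval -0.56 to 0.32), and 0 of 10 members passed in limma, where 395 genes did and 2751 had an unadjusted p under 0.05. Values of this reading without B6xBALB/C replicate 6, where the excess of B6xBALB/C in Piwil1 was larger, are not given.

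Asz1 and Gtsf1 had the lowest values in that second reading, -0.90 (SE 0.28, adjusted p = 0.0819) and -0.70 (SE 0.30, adjusted p = 0.210), and did not pass. As coded they did not pass either (Asz1 -0.84, SE 0.28, adjusted p = 0.124; Gtsf1 -1.07, SE 0.30, adjusted p = 0.0724). Piwil1 as coded no longer passed on removal of PWDxB6 replicate 3 (adjusted p = 0.0738), B6xPWD replicate 2 (0.0833) or BALB/CxB6 replicate 2 or 3 (0.0537 each), with the 4 F1 groups alone (0.0900), with robust variances (0.0691) or with B6xBALB/C replicates 4 to 6 alone (0.107). Piwil2 as coded was lost in 11 of 23 such removals, with adjusted p up to 0.111, with the 4 F1 groups alone (0.105) and with B6xBALB/C replicates 4 to 6 alone (0.194). Without B6xBALB/C replicate 6 there were 6 calls as coded, with Asz1, Mael, Gtsf1 and Mybl1 added, and 7.17% of all genes passed.

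**Figure D5:**
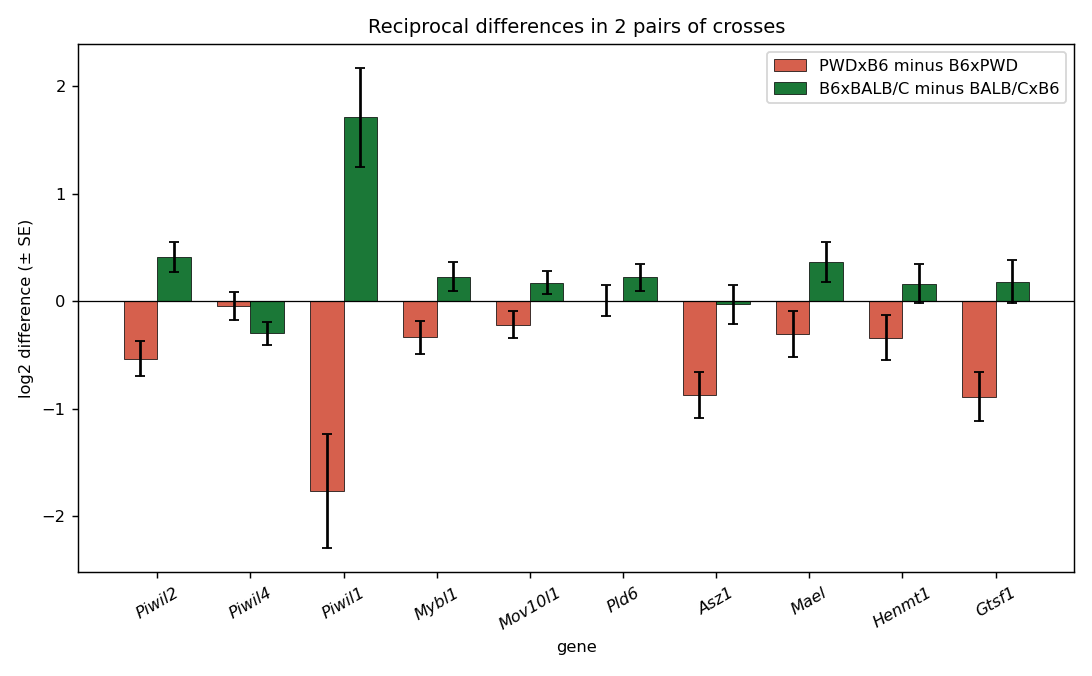
Reciprocal difference (log2, vertical axis) of each of the 10 genes in PWDxB6 minus B6xPWD and in B6xBALB/C minus BALB/CxB6, with the standard error of the fit. Piwil1 is at -1.77 and 1.71 and Piwil2 at -0.53 and 0.41; B6 is named second in the first cross of one pair and first in the first cross of the other, so opposite signs here mean that the cross with B6 named first was higher in both pairs.

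The crosses within a subspecies were compared with PWD or B6, and 0 members passed with all arrays. PWDxPWK exceeded PWD in all 10 members (median 0.24 against 0.00 over all genes), Piwil1 by 0.59 (SE 0.59) and Asz1 by 0.54 (SE 0.24), with 0 members called in limma. There 0.00678% of all genes passed, 1 gene, and 419 had an unadjusted p under 0.05. The mean of B6xBALB/C and BALB/CxB6 differed from B6 by 0.53 for Mael (SE 0.18, adjusted p = 0.0856) and 0.49 for Gtsf1 (SE 0.19, adjusted p = 0.142), the next largest being 0.25 for Henmt1 (SE 0.17). Of the members 0 were called in limma, where 4.51% of all genes passed (2.46% higher, 2.05% lower) and 3102 had an unadjusted p under 0.05. Without B6xBALB/C replicate 6 there were 2 calls, Mael (0.60, adjusted p = 0.00649) and Gtsf1 (0.56, adjusted p = 0.0201), and 9.07% of all genes passed.

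Henmt1 and Pld6 had the narrowest ranges over genotype means among the biogenesis factors, 0.47 and 0.49. The means of the nuclease Pld6 ran from 7.78 ± 0.08 (SD, n = 3) in B6 to 8.27 ± 0.15 (n = 2) in PWDxPWK, and it passed in none of the 8 comparisons. Henmt1 ran from 7.34 ± 0.25 in B6 to 7.81 ± 0.25 in B6xPWD (SD, n = 3 each), and Mael from 9.49 ± 0.19 (n = 3) in B6 to 10.19 ± 0.47 (n = 6) in B6xBALB/C. Over all members PWD had the lowest genotype mean for 6 of 10, B6 for 3 and PWDxB6 for 1, Piwil1. B6xBALB/C had the highest mean for 5, Piwil1, Piwil2, Mov10l1, Mael and Mybl1, and B6xPWD for 3, Asz1, Henmt1 and Gtsf1.

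Other genes of the piRNA pathway were taken from a list of 28, of which 24 were on the array and 22 were tested. Between the reciprocal hybrids 1 fell (4.55%, against 1.51% of all genes lower and 2.83% in either direction), and the median was -0.38. It was Tex15 (-0.42, SE 0.11, adjusted p = 0.0401), a nuclear partner of Piwil4 that also acts in recombination. Tdrd9 (-0.58, adjusted p = 0.0724), a helicase with a Tudor domain, and Tdrkh (-0.45, adjusted p = 0.0782), a mitochondrial Tudor protein, did not pass. There were 8 lower without B6xBALB/C replicate 6, these 3 among them, where 5.77% of all genes passed in either direction. In B6xPWD against the mid-parent 4 rose (18.2%, against 7.79% of all genes higher and 14.5% in either direction). They were Tdrkh (0.47, adjusted p = 0.0167), the trimming exonuclease Pnldc1 (0.35, adjusted p = 0.0421), the mitochondrial Gpat2 (0.46, adjusted p = 0.0306) and Morc1 (0.40, adjusted p = 0.0305), a transposon repressor. Without B6xBALB/C replicate 6 there were 7, where 17.8% of all genes passed. In PWDxB6 against the mid-parent 0 of 22 passed, with Morc1 at 0.31 (adjusted p = 0.282), Tex15 at -0.23 (adjusted p = 0.335) and Tdrd1 at -0.46 (adjusted p = 0.344) having the smallest p.

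PWD was lower than B6 in the Tudor proteins Tdrd1 (-0.65, adjusted p = 0.0471) and Tdrd5 (-0.84, adjusted p = 0.0193), in Ddx4 (-0.60, adjusted p = 0.0350) and in Wdr77 (-0.37, adjusted p = 0.00716), a partner of the arginine methyltransferase Prmt5, and higher in Morc1 (0.56, adjusted p = 0.00673). That made 4 lower and 1 higher of 22 (22.7%, against 18.4% of all genes), and 6 lower and 1 higher without B6xBALB/C replicate 6, where 20.7% of all genes passed. In B6xBALB/C against BALB/CxB6 Tdrd6 (1.70, adjusted p = 0.0455), a Tudor protein of the chromatoid body, was the 1 gene of the list to pass (4.55%, against 0.441% of all genes). Morc1 (0.47, adjusted p = 0.0228) was the 1 to pass between the mean of those crosses and B6 (4.55%, against 4.51% of all genes). Without replicate 6 these became 10 higher and 1 lower, and 2 higher, where 6.86% and 9.07% of all genes passed. In the difference of reciprocal differences as coded, Tdrd1 (-1.21, adjusted p = 0.0451), Tdrd5 (-1.56, adjusted p = 0.0231), Tdrd6 (-2.54, adjusted p = 0.0284) and Tdrd9 (-0.95, adjusted p = 0.0461) passed, 4 of 22 (18.2%, against 1.3% of all genes). Without replicate 6 there were 11, where 7.17% of all genes passed. With B6 in the same place in both pairs none of these 4 did, at -0.20, 0.13, 0.86 and -0.21 (lowest adjusted p of the 4 = 0.422). Tex15, which was not called as coded, did pass in that reading (-0.78, SE 0.14, adjusted p = 0.00733 in limma), where 395 of all genes passed.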

How the data were processed

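The authors deposited log2 expression values of 25690 probe sets on 23 arrays. No source used here gives the normalization, background correction or software, and the log base was inferred from the values, which lie between 1.17 and 13.96. Per the series design text, the authors left out 1 PWDxPWK array that stood apart. Gene names came from the platform annotation of the probe sets (20777 with 1 symbol, 232 with several, 4681 with none listed), and for 564 of 19661 genes with several the one with the highest mean was used.

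Genes in the lowest 25% by mean were left out (14746 remained). All arrays entered 1 model of 7 genotype means in limma 3.58.1 in R 4.3.3 (16 residual degrees of freedom), p-values were adjusted over all genes by Benjamini-Hochberg, and genes were called below 0.05. Whether the pools are of different litters is not stated in the labels. The p-values therefore reflect only how these arrays spread, which may be technical. The mid-parent is the mean of the PWD and B6 means. Pathway genes named were those past the threshold and the 3 smallest p of the list; likeness gives the 3 highest r. Members and lists were chosen with earlier results of these data known.

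On simulated arrays of PWDxB6 against B6xPWD (14746 genes), the test found 38% of 100 genes shifted by 0.5 and 92% of 100 shifted by 1. The shifted genes were drawn at random, with independent normal noise and no array standing apart. These shares therefore do not hold for noisier members such as Piwil1 (pooled SD 0.77 against a median of 0.16). Alternatives were other filters, normalizations, variance models and array weights, a replicate block, the order of subtraction in the crosses (added after seeing the data), subsets of arrays and each array left out. Same-numbered replicates deviated together (r over 0.1) in 17 of 57 pairs, so the numbers were not treated as pairing.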

Additional observations from a re-analysis of the deposited data

Results flagged for a closer look

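B6xBALB/C replicate 6 lay far below the 5 other arrays of its genotype for Piwil1 (6.89 against 9.09 to 10.29), Gtsf1 (7.58 against 8.29 to 8.71) and Mybl1 (8.44 against 8.95 to 9.25). The gap to the nearest array, divided by the range of the group, was 0.647, 0.626 and 0.629, above the critical value of 0.625. Chance marks an array in about 1 in 20 groups, and over all genes 6.25% were past this value, 3.24% with replicate 6 as the array. The 3 members share that 1 array and correlate, so they are not independent.

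As coded, the reciprocal difference of PWDxB6 and B6xPWD differed from that of B6xBALB/C and BALB/CxB6 for Piwil1 (-3.48, adjusted p = 0.0198 in limma) and Piwil2 (-0.94, adjusted p = 0.0316 in limma). B6 is named second in the first cross of one pair and first in that of the other. With B6 in the same place in both pairs, chosen after seeing the data, the values were -0.06 (adjusted p = 0.975) and -0.12 (adjusted p = 0.795). They include B6xBALB/C replicate 6.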

How the results depend on the processing

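Counts of members called are given first and counts of all genes called second in each pair. Where a single count is given, the other did not change from the value as reported or changed by a smaller factor. The values as reported were 2 and 418 (PWDxB6 against B6xPWD), 0 and 99 (PWDxB6 against mid-parent), 2 and 2135 (B6xPWD against mid-parent), 3 and 2719 (PWD against B6), 0 and 65 (B6xBALB/C against BALB/CxB6), 0 and 1 (PWDxPWK against PWD), 0 and 665 (B6 and BALB/C F1s against B6) and 2 and 192 (difference of reciprocal differences). In that order, array weights gave 8 and 4635, 1 and 212, 6 and 5968, 5 members, 5 and 1618, 2 genes, 1 and 442, and 9 and 4222. B6xBALB/C replicates 1 to 3 alone gave 4 and 931, 1 and 227, 5 members, 5 members, 5 and 1275, 2 genes, 4 and 1679, and 8 and 1444. The replicate block, fitted to replicates 1 to 3 only, gave 4 and 1044, 1 and 239, 5 members, 5 members, 5 and 1311, 4 genes, 4 and 1713, and 7 and 1599; most of its change is also seen with those replicates alone, and the numbers were not shown to pair the arrays. Fitting only the groups compared gave 4 and 207, 1 and 174, 5 members, 5 members, 0 genes, 3 genes, 280 genes, and 0 and 23.

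B6xBALB/C replicates 4 to 6 alone gave 4 members in B6xPWD against mid-parent, 0 genes in B6xBALB/C against BALB/CxB6, 213 in the F1s against B6, and 0 and 20 in the difference of reciprocal differences. The crosses within a subspecies as reference gave 1 and 192 for PWDxB6 and 0 and 351 for B6xPWD. Without a dim filter PWDxB6 against B6xPWD had 1 member and PWDxPWK against PWD 2 genes. For B6xBALB/C against BALB/CxB6 the stricter filter gave 26 genes, quantile normalization 30, robust variances 30 and centring on the median autosomal gene 125; centring gave 0 for PWDxPWK against PWD. With B6 in the same place in both pairs, chosen after seeing the data, the difference of reciprocal differences had 0 and 395. Robust variances gave 1 and 73 for the difference of reciprocal differences. With each array left out in turn the counts ran from 0 to 4 and 54 to 851, 0 to 1 and 30 to 162, 0 to 5 and 389 to 2621, 2 to 5 and 1802 to 3054, 0 to 3 and 1 to 1011, 0 to 0 and 0 to 2, 0 to 2 and 188 to 1337, and 0 to 6 and 19 to 1057. The cause of these changes was not tested, beyond fewer arrays or genes where the setting removes them.

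Of 9 member results called, 7 lost the call in at least 1 setting and 0 changed sign; Mov10l1 and Asz1 in PWD against B6 kept it in all settings run. Of 71 not called, 30 passed in at least 1. Brightness relative to background was not assessed, as scanner output was not used here.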

Other observations

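Genes of the microRNA pathway, the other small RNA pathway of these cells, were set beside the piRNA genes, all 13 listed being tested. Between the reciprocal hybrids 0 passed in limma, with a median of -0.06, Xpo5 (-0.28, adjusted p = 0.0904), the exporter of precursor microRNAs, and Ago2 (0.32, adjusted p = 0.129), the cleaving Argonaute protein, being nearest. In B6xPWD against the mid-parent Ago2 fell (-0.37, adjusted p = 0.0233 in limma), 1 of 13 (7.69%, against 14.5% of all genes). In PWD against B6 Dgcr8, a subunit of the nuclear microRNA processor, was lower (-0.37, adjusted p = 0.0187). That was also 1 of 13, where 18.4% of all genes passed. In PWDxB6 against the mid-parent 0 passed, Xpo5 having the smallest p (-0.22, adjusted p = 0.249). Prkra, a partner of Dicer, was lower in the mean of the B6 and BALB/C crosses than in B6 (-0.51, adjusted p = 0.0277). It was the 1 gene of the list to pass there (7.69%, against 4.51% of all genes). Without B6xBALB/C replicate 6 these calls of Ago2, Dgcr8 and Prkra held. Ago2 then also passed in B6xBALB/C against BALB/CxB6 (0.39, adjusted p = 0.0228), where 6.86% of all genes did. In the difference of reciprocal differences as coded, 1 gene of the list was then called higher, where 7.17% of all genes passed.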
